A study of Mus musculus with 16 samples.

Results

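*Runx1*, *Runx2* and *Runx3* encode the 3 mammalian RUNX transcription factors and *Cbfb* encodes their shared partner, CBFβ. Open chromatin at these 4 genes was followed by ATAC-seq through thymocyte development. The regions described are all ATAC peaks of the DN, DP, SP4 and SP8 stages that lie within one of the genes or within 50 kb of it on either side. Overlapping peaks of different stages, by 1 bp or more, were joined into a region, and a region was called at each stage with a peak in it. The 4 genes held 286 of the 185978 regions found in the whole genome, made from 230 DN, 157 DP, 185 SP4 and 179 SP8 peaks. A region not called at a stage may still hold reads there, under the threshold of the peak caller.

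Thymocytes came from wild type C57BL/6J mice that were 9 weeks old, and the 4 stages were sorted by flow cytometry from 4 mice, giving 16 libraries. After exclusion of other blood lineages, DN cells were sorted as lacking CD4, CD8 and CD3, DP cells as bearing both CD4 and CD8, and SP4 and SP8 cells as bearing CD3 and CD4 or CD3 and CD8. Each stage is a mixture of substages, and a change in the makeup of the sorted cells cannot be told apart from a change in each cell. The authors pooled the mice of a stage before peaks were called, so each stage has 1 list. These lists give no spread between mice and allow no test between stages, and values per mouse were not used here.

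RUNX proteins bind DNA through the Runt domain, which recognises TGTGGT and close variants, and CBFβ strengthens this binding without touching the DNA itself. In T cells, Runx1 acts at the earliest stages and holds *Cd4* silent in DN cells, whereas Runx3 silences *Cd4* and promotes the cytotoxic programme in the CD8 lineage. Runx2 is best known as the master regulator of bone-forming osteoblasts. Each *Runx* gene has a distal promoter, P1, and a proximal promoter, P2, which give proteins with different first residues.

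Genes were placed on mm10 with GENCODE M21. *Runx1* (ENSMUSG00000022952.17) lies on the minus strand at chr16:92601466-92826149, *Runx2* (ENSMUSG00000039153.16) on the minus strand at chr17:44495987-44814797, *Runx3* (ENSMUSG00000070691.10) on the plus strand at chr4:135120652-135177990 and *Cbfb* (ENSMUSG00000031885.14) on the plus strand at chr8:105170674-105217989. P1 and P2 are 128.8 kb apart at *Runx1*, 78.1 kb at *Runx2* and 31.8 kb at *Runx3*. Distances below are from the P1 start, or from the start of *Cbfb*.

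The sequences of 4 promoters, the distal promoters of the *Runx* genes and the promoter of *Cbfb*, are shown. Each is the 200 bp before the transcriptional start site (TSS), read 5′ to 3′ on the strand of the gene from the RefSeq copy of GRCm38, with capitals marking RUNX matches (TGTGGT or TGCGGT on either strand). The windows are chr4:135120452-135120651 for *Runx3* P1, chr17:44814798-44814997 for *Runx2* P1, chr16:92826150-92826349 for *Runx1* P1 and chr8:105170474-105170673 for *Cbfb*.
Runx3 P1 promoter: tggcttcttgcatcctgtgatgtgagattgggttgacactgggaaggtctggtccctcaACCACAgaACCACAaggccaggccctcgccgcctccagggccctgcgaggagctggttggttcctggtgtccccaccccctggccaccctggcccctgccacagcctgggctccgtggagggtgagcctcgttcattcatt
Runx2 P1 promoter: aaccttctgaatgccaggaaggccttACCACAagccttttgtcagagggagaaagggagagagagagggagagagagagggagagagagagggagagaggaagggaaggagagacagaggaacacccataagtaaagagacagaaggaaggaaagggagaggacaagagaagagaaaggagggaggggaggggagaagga
Runx1 P1 promoter: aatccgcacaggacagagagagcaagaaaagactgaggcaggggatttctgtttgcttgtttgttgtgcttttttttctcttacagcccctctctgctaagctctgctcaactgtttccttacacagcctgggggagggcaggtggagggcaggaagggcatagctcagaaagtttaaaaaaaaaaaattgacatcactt
Cbfb promoter: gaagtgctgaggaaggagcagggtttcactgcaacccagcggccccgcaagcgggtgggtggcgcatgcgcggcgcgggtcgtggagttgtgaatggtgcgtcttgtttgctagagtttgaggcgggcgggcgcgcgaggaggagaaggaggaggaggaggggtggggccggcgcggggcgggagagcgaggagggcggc

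*Runx3* P1 holds 2 RUNX matches, starting 141 and 133 bp before its TSS, and *Runx2* P1 holds 1, starting 174 bp before its TSS. The 200 bp before *Runx1* P1, before *Cbfb* and before the 3 P2 promoters hold 0. Of the 54391 promoters of protein-coding transcripts in the same annotation, 14.5% hold at least 1 match. A match is a sequence of letters and not a bound site.

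For 6 regions outside promoters that differed strongly between stages, the 200 bp around the summit of the highest peak are shown in the same way, on the strand of the gene. They lie at chr4:135108767-135108966, chr4:135114574-135114773 and chr4:135131205-135131404 near or in *Runx3*, at chr16:92741442-92741641 in *Runx1*, at chr17:44508406-44508605 in *Runx2* and at chr8:105189098-105189297 in *Cbfb*.
Runx3 -11.8 kb: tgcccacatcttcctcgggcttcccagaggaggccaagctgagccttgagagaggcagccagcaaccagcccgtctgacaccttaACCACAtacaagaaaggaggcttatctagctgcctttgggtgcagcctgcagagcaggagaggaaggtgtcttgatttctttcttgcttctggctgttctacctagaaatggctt
Runx3 -6.0 kb: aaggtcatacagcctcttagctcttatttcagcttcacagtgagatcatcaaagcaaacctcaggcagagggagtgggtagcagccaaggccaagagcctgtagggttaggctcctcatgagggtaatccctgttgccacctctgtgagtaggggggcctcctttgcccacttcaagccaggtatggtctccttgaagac
Runx3 +10.7 kb: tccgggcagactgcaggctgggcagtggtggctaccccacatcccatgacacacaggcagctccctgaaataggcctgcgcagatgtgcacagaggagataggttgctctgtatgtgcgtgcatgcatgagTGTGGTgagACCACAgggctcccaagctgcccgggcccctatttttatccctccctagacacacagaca
Runx1 +84.6 kb: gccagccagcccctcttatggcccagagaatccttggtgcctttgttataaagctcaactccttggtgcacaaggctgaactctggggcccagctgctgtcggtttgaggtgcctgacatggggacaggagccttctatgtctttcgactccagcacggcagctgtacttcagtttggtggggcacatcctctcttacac
Runx2 +306.3 kb: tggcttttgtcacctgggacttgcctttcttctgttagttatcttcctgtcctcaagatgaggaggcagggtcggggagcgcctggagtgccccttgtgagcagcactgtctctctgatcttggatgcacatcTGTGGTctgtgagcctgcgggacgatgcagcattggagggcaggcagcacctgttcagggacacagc
Cbfb +18.5 kb: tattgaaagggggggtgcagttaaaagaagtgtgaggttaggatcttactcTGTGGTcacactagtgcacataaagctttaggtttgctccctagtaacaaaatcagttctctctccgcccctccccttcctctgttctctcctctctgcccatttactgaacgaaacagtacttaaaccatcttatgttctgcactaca

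The number of reads at each summit was recovered from the deposited fold enrichment and p-value, and is given as summit depth, in multiples of the genome mean of the stage. The mean was 3.509 reads per 100 bp in DN, 3.275 in DP, 3.219 in SP4 and 3.582 in SP8. Brackets after a depth give the exact Poisson 95% interval, and those after a ratio the exact interval of 2 counts. They cover counting error only and say nothing of the spread between mice. Wilson intervals after a share treat the regions of a gene as separate draws, although neighbours can share reads, and are descriptions. The peak height used by the authors' caller, fold enrichment, divides the summit by the surrounding reads and is given here as a percentile within the list of the stage. The local density is the number of reads in the 10 kb around a summit, those of the peak itself included, again over the genome mean. It cannot be read below the mean and is then given as 1, and summits closer than 10 kb share reads.

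The regions were spread unevenly over the genes. *Runx1* held 114 regions (35.1 per 100 kb), 81 of them in introns and 14 on each side of the gene. *Runx2* held 80 (19.1 per 100 kb), 64 of them in introns, and *Cbfb* held 26 (17.6 per 100 kb), of which 3 touched the gene. *Runx3*, the shortest *Runx* gene at 57.3 kb, had 66 regions (41.9 per 100 kb), 29 of them in the gene, 25 upstream and 12 downstream.

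**Figure D1:**
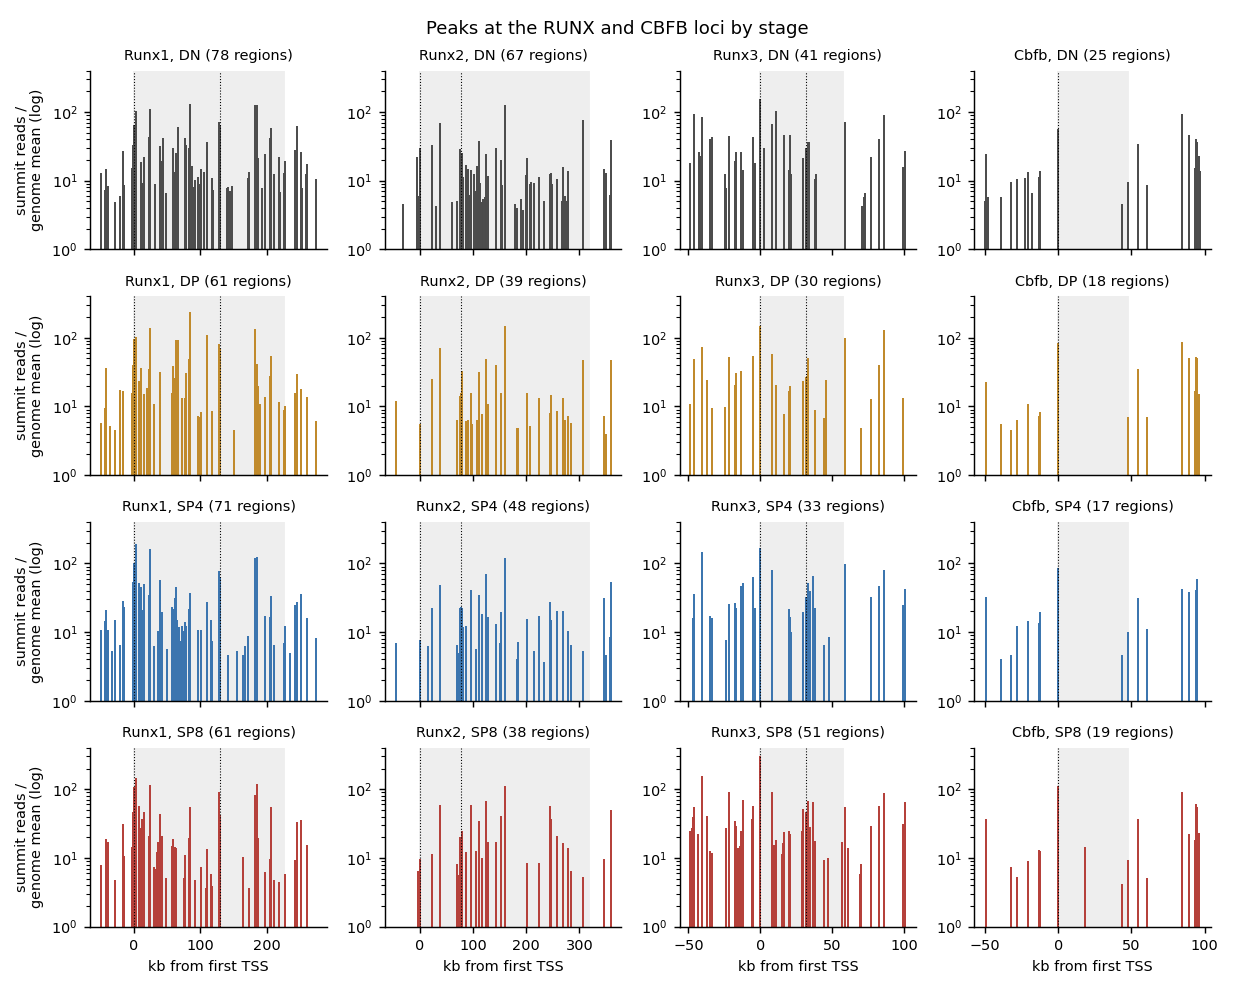
Summit depth of each region in multiples of the genome mean (log scale) against distance from the first TSS in kb, with a column of panels per gene, a row per stage and a vertical line per region, drawn up from 1 times the mean. Shading marks the gene body and dotted lines the promoters. *Runx3* P1 reaches 307 times the mean at SP8, and the *Runx1* intron region at 84.6 kb reaches 233 times at DP.

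The regions of *Runx3* were called most often at SP8. Of its 66 regions, 51 (77.3%, Wilson 95% interval 65.8 to 85.7%) were called at SP8, against 53.0% of all regions. The count was 41 (62.1%) in DN, where 75.7% of all regions were called, 30 (45.5%) in DP, against 53.9%, and 33 (50%) in SP4, against 58.3%. *Runx3* was thus below the share of all regions at DN, DP and SP4 and above it at SP8. *Cbfb*, at 73.1% with 26 regions, was not clearly lower at SP8 than *Runx3*. With equal numbers of peaks from each list the shares were 86.4% and 85%, beside 63.1% of all regions. Within 100 kb both were 70.8%, beside 53.0%. In that wider window the *Runx3* share was 71.9% at DN, so that SP8 was no longer the highest stage. The *Runx3* SP8 peaks covered 15031 bp, 1.36 times the 11068 bp at SP4, with 12723 bp at DN and 10449 bp at DP.

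Regions called at SP8 alone made up 15 of the 66 *Runx3* regions (22.7%, interval 14.3 to 34.2%), against 4.21% of all regions. A further 6 were called at SP8 and at DN or DP but not at SP4, so that 21 regions (31.8%) were called at SP8 and not at SP4, against 9.24% of all regions. The opposite set, SP4 and not SP8, held 3 regions (4.55%), against 14.6%. The other classes were nearer to the whole genome. Called at all 4 stages were 21 regions (31.8%), against 34.1%, and called at DN alone were 9 (13.6%), against 21.7%. DP alone had 2 regions, against 5.17% of all regions, and SP4 alone had 1, against 7.39%.

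The 15 SP8-only regions lay from 47.8 kb upstream of P1 to 69.4 kb downstream of it, with 6 upstream of the gene, 6 in introns, 1 in an exon and 2 downstream. They were narrow, with a median width of 120 bp, and low by percentile, with a median of 5.91 against 17.1 over all SP8-only regions. Their summits had a median depth of 15.6 times the genome mean (range 5.86 to 37.4) against 6.14. The local density around them had a median of 4.76 against 1.26. Peaks are called against the local reads, and where these are dense only deep summits are called. Depth and density are therefore not separate results here. The deepest, at chr4:135114425-135114873, 6.0 kb upstream of P1, reached 37.4 times the mean (31.3 to 44.3) and the percentile 58.8. Its sequence, shown above, holds 0 RUNX matches.

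SP8-only summits also stood close to P2. The regions at 29.3 and 29.7 kb, just before P2, reached 24.8 (20 to 30.6) and 28.5 (23.2 to 34.6) times the mean, in a stretch with a local density of 9.66 and 9.68. They lay beside the region at 29.9 kb, which was called at all 4 stages. Likewise, the SP8-only region at 15.6 kb lay beside that at 16.2 kb, called at DN, DP and SP8. The one 5.6 kb upstream of P1 lay beside the one at 6.0 kb. Whether such neighbours are separate elements was not tested. Far upstream, the regions 47.8 and 43.2 kb before P1 reached 27.4 and 22.3. The lowest, 69.4 kb after P1, reached 5.86 (3.63 to 8.96) with a local density of 1.36.

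The 6 regions called at SP8 and at an earlier stage but not at SP4 included the intron region at chr4:135131120-135131528, 10.7 kb after P1. Its summit depth was 105 in DN, 20.8 in DP and 18.1 in SP8, and the sequence shown above holds 2 RUNX matches on opposite strands. The intron region at 16.2 kb had 46.4 in DN, 7.63 in DP and 24 in SP8. In both, DN was the deepest stage. The region at 34.0 kb, in an exon just after P2, was called at DN (36.5) and SP8 (20.9).

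The 3 regions called at SP4 and not at SP8 were shallow to moderate. The region 3.5 kb upstream of P1 had a depth of 22.1 in SP4 and 18 in DN, and the intron region at 21.3 kb had 9.94 and 12.5. The region at 47.6 kb, called at SP4 alone, reached 8.39.

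**Figure D2:**
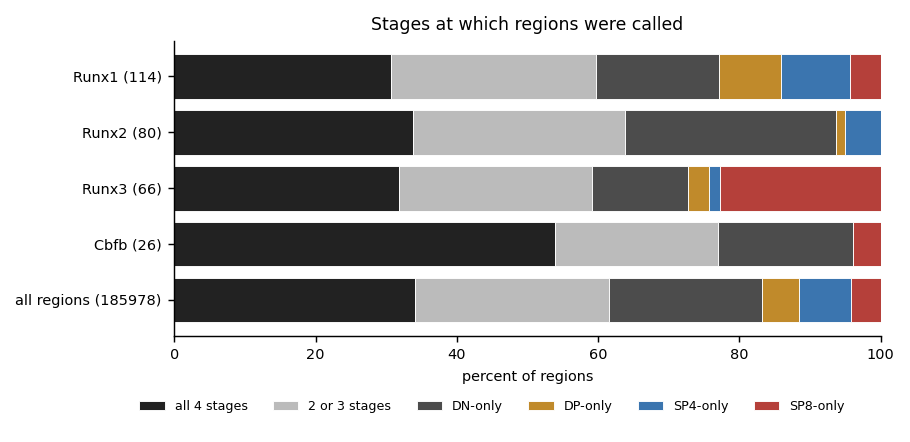
Percent of the regions of each gene (number in brackets) and of all regions that were called at all 4 stages, at 2 or 3 stages, or at a single stage. SP8-only regions make up 22.7% at *Runx3* against 4.21% of all regions, and DN-only regions 30% at *Runx2* against 21.7%.

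P1 of *Runx3*, a region at chr4:135120005-135120728, had the deepest summit of all 286 regions. It held 539 reads in DN, 480 in DP, 547 in SP4 and 1100 in SP8. Over the genome mean the depth was 154 in DN (141 to 167), 147 in DP (134 to 160), 170 in SP4 (156 to 185) and 307 in SP8 (289 to 326). The first 3 stages lay within 1.16 times of each other, and SP8 stood above all of them by more than the counting error, at 1.81 times SP4 (1.63 to 2.01) and 2 times DN (1.8 to 2.22). Of the 12043 promoter regions called at all 4 stages, 3.61% had as high a ratio of SP8 to SP4, and their median ratio was 1.09.

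The fold enrichment at P1 did not show this difference, with 19 in DN, 20.6 in DP, 23.2 in SP4 and 22.1 in SP8, and percentiles from 93.5 to 95.6. The local density around P1 was 7.83 in DN, 6.83 in DP, 7.04 in SP4 and 13.6 in SP8. This density includes the reads of the peak, so the surroundings were not measured apart from it. P2, at chr4:135152178-135152573, was shallower at every stage, with 29.4 in DN, 26.9 in DP, 32.6 in SP4 and 46.3 in SP8, and a ratio of SP8 to SP4 of 1.42 (1.11 to 1.83). By percentile of fold enrichment, P2 was lowest at SP8, at 29.4, against 35.1 to 38 at the other stages. Ranked by q-value it was highest there, at 68, against 62.4 to 67.2.

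**Figure D3:**
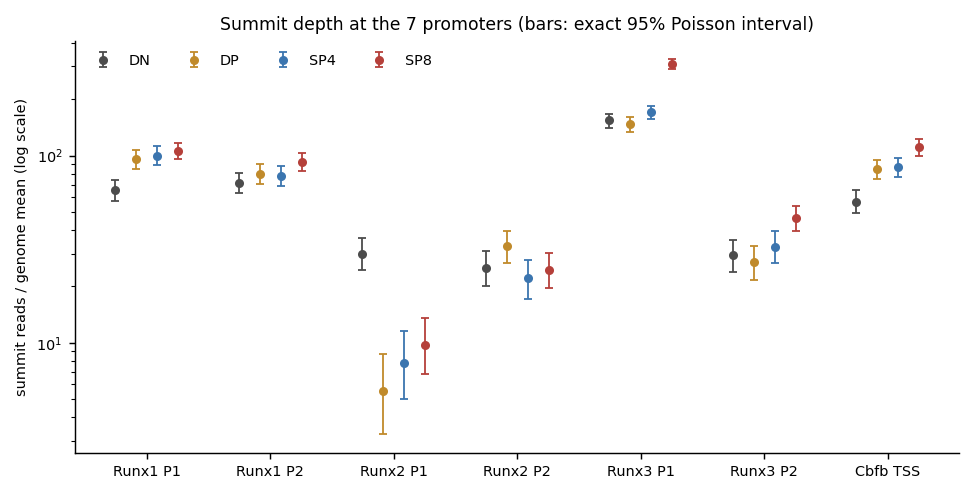
Summit depth at the 7 promoters in multiples of the genome mean (log scale), 1 point per stage, with bars for the exact Poisson 95% interval. *Runx3* P1 stands apart at SP8 (307), and *Runx2* P1 is deepest at DN (29.9).

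Summit depth was greater at SP8 than at SP4 in 22 of the 30 *Runx3* regions called at both stages. In these 30 regions the median ratio of SP8 to SP4 summit depth was 1.27 (range 0.521 to 3.56), against 0.998 over all regions called at both. The depth was at least 2 times higher at SP8 in 5 of the 30, against 4.72% of all such regions, and at least 2 times lower in 0, against 7.06%. The local density was higher at SP8 in 30 of 30 regions, with a median ratio of 1.62 (1.15 to 2.7), against 1 over all regions. These 30 windows overlap, so they are not 30 separate measurements. By percentile the same regions differed by a median of -9.55 points (SP8 minus SP4), the opposite direction. Fold enrichment divides by the local reads, and the cause of the difference between measures was not tested. Ranked by q-value the median difference was -0.631 points. Against DN, the depth was at least 2 times higher at SP8 in 6 of 29 *Runx3* regions, beside 9.43% of all regions. It was at least 2 times lower in 4, beside 16.0%.

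Away from the gene the ratio of local density was near 1, with a median of 1.05 in the 14 regions from 50 to 200 kb on the side of P1 and 1.03 in the 15 regions on the other side. The ratio of summit depth was not lower on the side of P1 than at the gene, with a median of 1.34 there and 1.02 on the other side, beside 1.27 in the window. Among 9084 protein-coding genes with at least 10 regions called at both stages in the same kind of window, *Runx3* ranked 10th by the median ratio of local density and 286th by that of summit depth, and neighbouring genes share regions. These ranks and the flanks were computed after the values of *Runx3* had been seen, and they are descriptions of the pooled lists.

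**Figure D4:**
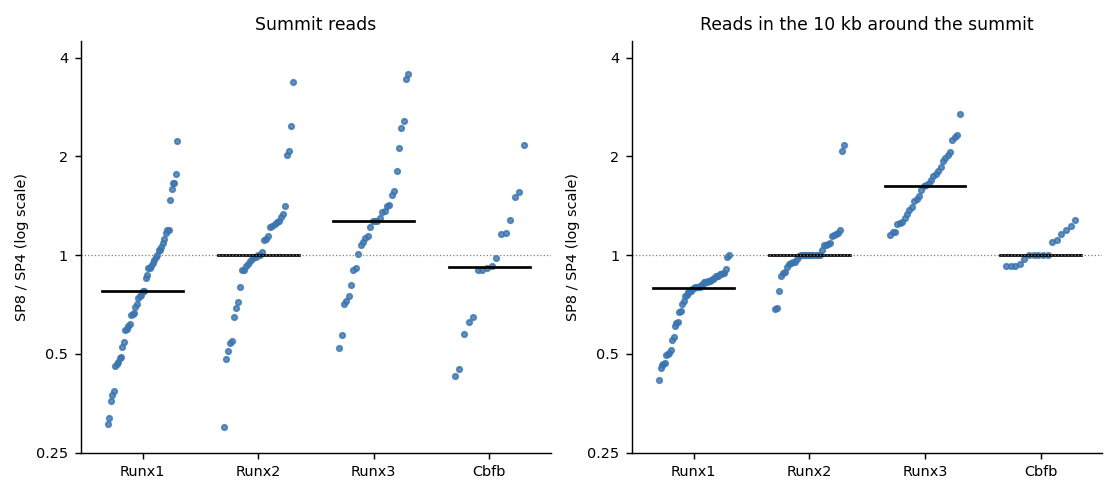
Ratio of SP8 to SP4 (log scale) for regions called at both stages, 1 point per region and a bar at the median, for summit reads on the left and for reads in the surrounding 10 kb on the right, both over the genome mean. All 30 *Runx3* points on the right lie above 1, and 0 of the 49 *Runx1* points do.

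The regions of *Runx3* with the largest ratio lay upstream of P1. The region at 22.0 kb upstream had a depth of 45 in DN, 53.1 in DP, 25.5 in SP4 and 90.7 in SP8, a ratio of SP8 to SP4 of 3.56 (2.79 to 4.6). Its neighbour at 23.9 kb upstream had 7.69 in DN, 7.77 in SP4 and 26.8 in SP8 (3.45, 2.2 to 5.59). Both were deepest at SP8. The region just before P2, at 29.9 kb, had 21.1, 23.2 and 19.9 in DN, DP and SP4 and 50.8 in SP8.

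Other upstream regions were deep in both SP stages. The region at chr4:135108580-135109165, 11.8 kb upstream, was not called at DP and had 14.2 in DN, 51.6 in SP4 and 69.5 in SP8, and its sequence holds 1 RUNX match. The region at 40.6 kb upstream had 84.9 in DN, 72.1 in DP, 147 in SP4 and 157 in SP8, where the ratio of SP8 to SP4, 1.07 (0.943 to 1.21), lay within counting error. The regions at 11.8, 22.0, 23.9 and 40.6 kb upstream and at 29.9 kb were chosen after their values were seen.

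Some *Runx3* regions followed another order. The region at chr4:135179001-135179645, just past the end of the gene at 58.7 kb, had 72.4 in DN, 98 in DP, 97.9 in SP4 and 55.8 in SP8, a ratio of SP8 to SP4 of 0.571 (0.476 to 0.683). The region at 33.5 kb upstream was deepest at DN (43.9), with 9.47 in DP, 16.2 in SP4 and 11.7 in SP8. The intron region at 45.4 kb was called at DP alone, at 24.1. The intron region at 8.3 kb was open at all stages, with depths of 67.5, 57.4, 79.8 and 90.2, and the region at 101.0 kb was called at DN (26.8), SP4 (42.3) and SP8 (66.2).

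**Figure D5:**
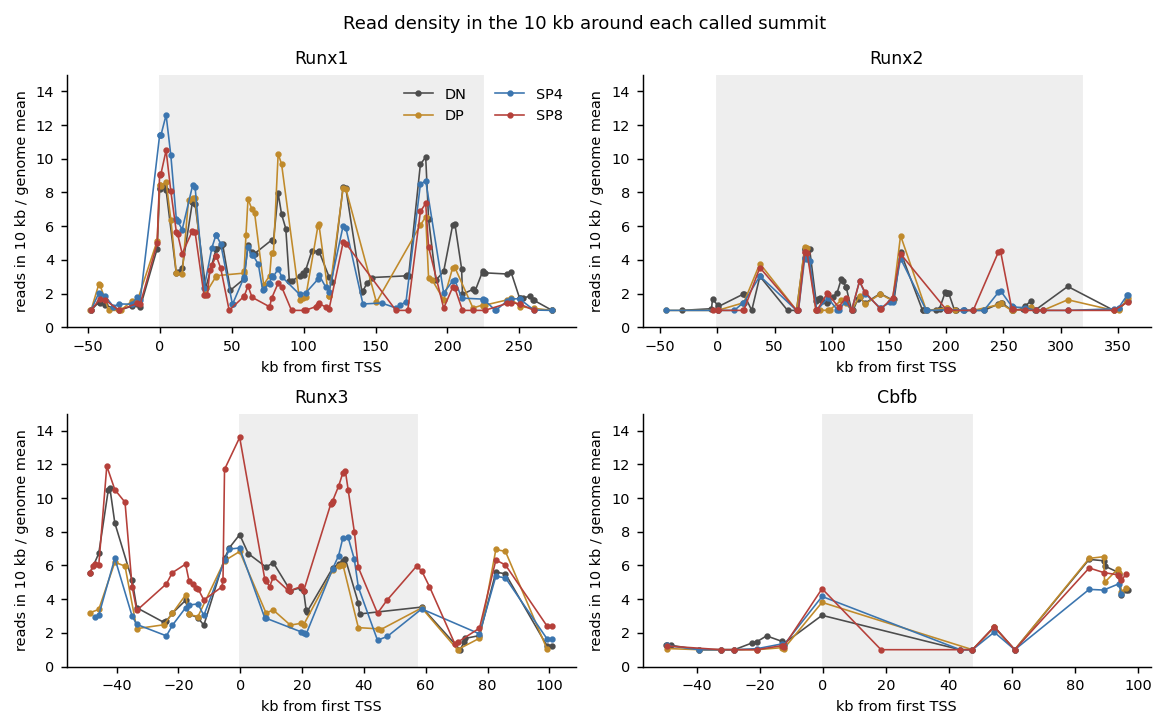
Reads in the 10 kb around each called summit, in multiples of the genome mean (linear axis), against distance from the first TSS in kb, with 1 panel per gene, 1 point per region, 1 coloured line per stage and the gene body shaded. The SP8 line of *Runx3* reaches 13.6 at P1, where DN is at 7.83, DP at 6.83 and SP4 at 7.04, and the DP line of *Runx1* stands above both SP lines in the stretch around 84.6 kb.

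The regions of *Runx1* lay nearer to the shares of the whole genome than those of *Runx3*. Of its 114 regions, 78 (68.4%) were called at DN, 61 (53.5%) in DP, 71 (62.3%) in SP4 and 61 (53.5%) in SP8, beside 75.7, 53.9, 58.3 and 53.0% of all regions. DN-only regions numbered 20 (17.5%), DP-only 10, SP4-only 11 and SP8-only 5, beside 21.7, 5.17, 7.39 and 4.21% of all regions, and 35 (30.7%) were called at all 4 stages, beside 34.1%. The order of the stages depended on the size of the lists. With equal numbers of peaks, 53.2% were called at DN, 63.8% in DP, 67% in SP4 and 64.9% in SP8, beside 63.3, 62.6, 63.1 and 63.1% of all regions. DN-only regions then made up 4.26% and SP8-only regions 12.8%, beside 11.1 and 7.05%. Over those 35, the median local density was 4.54 in DN, 3.54 in DP, 3.03 in SP4 and 2.33 in SP8, while over all regions called at all 4 stages it was between 2.05 and 2.27.

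In the 49 *Runx1* regions called at both SP stages, the median ratio of SP8 to SP4 summit depth was 0.778, against 0.998 over all regions. The depth was at least 2 times higher at SP8 in 1 region and at least 2 times lower in 10, against 4.72 and 7.06% of all regions. The local density was higher at SP8 in 0 of the 49, with a median ratio of 0.796 (0.417 to 1), against 1 over all regions. In the flank on the side of P1 the median was 0.802 for local density and 0.473 for summit depth over 22 regions, and in the other flank 0.97 and 0.814 over 11. Against DN, 3 of 47 regions were at least 2 times higher at SP8, where 9.43% of all regions were, and 13 were at least 2 times lower, where 16.0% were.

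Both *Runx1* promoters were open at all 4 stages. P1, at chr16:92826057-92826311, had a depth of 65.3 in DN, 95.6 in DP, 100 in SP4 and 106 in SP8. DN was the lowest stage, with a ratio of DP to DN of 1.46 (1.23 to 1.74), whereas SP8 and SP4 did not differ beyond counting error (1.06, 0.912 to 1.23). P2, at chr16:92697186-92698961, had 71.8, 79.7, 78 and 92.4 in the same order. Over all promoter regions called at all 4 stages the median depth was also lowest at DN, at 37.9, against 45.8 in DP, 44.4 in SP4 and 50 in SP8.

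The stretch of *Runx1* between P1 and P2 was divided at 50 kb after its values were seen. In the 9 regions of the first 50 kb called at both DP and SP8, the median ratio of SP8 to DP depth was 1.42 (0.591 to 3.12). In the 12 regions from there to P2 it was 0.441 (0.0668 to 0.949), and all 12 were shallower at SP8. The ratio of SP4 to DP showed the same contrast, with a median of 1.83 over 9 regions and 0.781 over 15. Over all regions called at both stages, the median ratio to DP was 1.1 for SP8 and 1.09 for SP4.

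The deepest *Runx1* region at any stage, at chr16:92741318-92741766, lay in an intron in the distal part of this stretch, 84.6 kb after P1. Its depth was 129 in DN, 233 in DP, 37.3 in SP4 and 54.7 in SP8, so that DP was 1.81 times DN and SP4 0.16 times DP. The sequence shown above holds 2 E boxes (CAGCTG or CAGGTG) and 0 RUNX matches. The intron region at chr16:92715980-92716437, at 109.9 kb, had 26.5 in DN, 109 in DP, 11.8 in SP4 and 7.26 in SP8. The region at 65.8 kb was called at DN (61) and DP (91.3) only. All 3 were deepest at DP.

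In the first 50 kb the order was different. The region at 4.2 kb had 102 in DN, 104 in DP, 189 in SP4 and 147 in SP8, and the region at chr16:92801392-92802181, 24.4 kb after P1, had 111, 138, 163 and 116. Both were deepest at SP4. These regions and the one at 65.8 kb were chosen after their values were seen. The region at 43.5 kb was called at DN alone, at 41.6, the deepest of all single-stage regions at the 4 genes.

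Beyond P2, the intron region at chr16:92644574-92645568 had 125 in DN, 132 in DP, 120 in SP4 and 83.5 in SP8, and was open throughout. Downstream of the gene, the region at 250.2 kb had 26.5 in DN, 17.7 in DP, 36 in SP4 and 36 in SP8. From DN to DP, 4 of 46 *Runx1* regions were at least 2 times deeper at DP, where 3.88% of all regions were, and 5 were at least 2 times shallower, where 16.5% were. The regions that were deeper at DP included the intron regions at 64.0 kb, chosen after its values were seen, and at 109.9 kb, with ratios of 3.6 and 4.1.

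*Runx2* had the highest share of DN calls among the 3 *Runx* genes. Of its 80 regions, 67 (83.8%) were called at DN, 39 (48.8%) in DP, 48 (60%) in SP4 and 38 (47.5%) in SP8, beside 75.7, 53.9, 58.3 and 53.0% of all regions. DN-only regions numbered 24 (30%, interval 21.1 to 40.8%, beside 21.7% of all regions), with a median depth of 6.27. At SP8 alone 0 regions were called (Wilson interval up to 4.58%), beside 4.21% of all regions. The DN list held more peaks than any other. When the same number of peaks was taken from each list, the share called at DN was 61.9%, beside 63.3% of all regions, and DN-only regions made up 12.7%, beside 11.1%.

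P1 of *Runx2* was the promoter with the largest difference between DN and the later stages. The promoter had 2 regions. The shallower, at chr17:44814075-44814324, had a depth of 7.12 in DN, 3.73 in SP4 and 4.75 in SP8, and was not called at DP. The deeper, at chr17:44814603-44815137, held 105 reads at DN, 18 in DP, 25 in SP4 and 35 in SP8. Its depth was 29.9 in DN (24.5 to 36.2), 5.5 in DP, 7.77 in SP4 and 9.77 in SP8. The ratio of DP to DN was 0.184 (0.105 to 0.305) and that of SP8 to DN 0.327. The percentile had the same order, with 93.6 in DN, 36.1 in DP, 51.7 in SP4 and 60.4 in SP8. P2, at chr17:44734471-44736635, did not share this pattern, with depths of 25.1, 32.7, 22.1 and 24.6. Both P1 of *Runx2* and P1 of *Runx3* hold RUNX matches, and one was deepest at DN and the other at SP8.

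A DN-only region at chr17:44819871-44820218, 5.2 kb upstream of P1, had a depth of 21.9 and stood at the percentile 89.8 of the DN list. Near the 3′ end of the gene, the intron region at chr17:44508182-44508878, 306.3 kb after P1, had 76.7 in DN, 47 in DP, 5.28 in SP4 and 5.3 in SP8. The ratio of SP4 to DN there was 0.0689, and the sequence shown above holds 1 RUNX match and 2 E boxes. DN and DP were high and both SP stages low.

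Other *Runx2* introns had the reverse order. The region at chr17:44569076-44570108, at 245.6 kb, had 12.3 in DN, 7.94 in DP, 27.3 in SP4 and 56.7 in SP8, and the region at 96.5 kb had 14.5, 15.9, 41.3 and 58.3. Both were chosen after their values were seen, and both were deepest at SP8. The deepest *Runx2* region, at 160.1 kb, had 127 in DN, 150 in DP, 122 in SP4 and 110 in SP8. Downstream, the region at 358.9 kb had 39, 47.3, 53.1 and 49.1. The promoter of *Supt3*, which encodes a subunit of the SAGA complex and starts inside the *Runx2* window, had 69.2, 69.9, 48.5 and 58.9.

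Between the SP stages, *Runx2* had a median ratio of SP8 to SP4 of 1 for summit depth and 1 for local density over 35 regions, against 0.998 and 1 over all regions. At least 2 times higher at SP8 were 4 of them, where 4.72% of all regions were, and 2 were at least 2 times lower, where 7.06% were. Against DN, 6 of 33 regions were at least 2 times higher at SP8 and 6 at least 2 times lower, beside 9.43 and 16.0% of all regions. From DN to DP the counts were 1 higher and 7 lower of 34, beside 3.88 and 16.5%. Local density was low, with medians of 1.58 in DN, 1.37 in DP, 1.45 in SP4 and 1.08 in SP8 over the 27 regions called at all 4 stages.

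The *Cbfb* window held few regions, most of them outside the gene. Of its 26 regions, 14 (53.8%, interval 35.5 to 71.2%) were called at all 4 stages, against 34.1% of all regions. In the gene body alone the share was 33.3% of 3 regions. The count was 25 (96.2%) in DN, 18 (69.2%) in DP, 17 (65.4%) in SP4 and 19 (73.1%) in SP8, beside 75.7, 53.9, 58.3 and 53.0% of all regions. With equal numbers of peaks, DN was not the highest stage, with 77.3% in DN, 81.8% in DP, 63.6% in SP4 and 86.4% in SP8. The shares of all regions were then 63.3, 62.6, 63.1 and 63.1% in the same order. DN-only regions numbered 5 (19.2%) and SP8-only regions 1 (3.85%), beside 21.7 and 4.21% of all regions, with 0 at DP alone or SP4 alone, beside 5.17 and 7.39%. The promoter, at chr8:105170107-105171844, had a depth of 56.7 in DN, 84.6 in DP, 86.4 in SP4 and 111 in SP8. The ratio was 1.95 (1.64 to 2.33) from DN to SP8 and 1.28 (1.1 to 1.5) from SP4 to SP8, against medians of 1.38 and 1.09 over all promoter regions called at all 4 stages. The percentile differed less, from 91.3 at DN to 94.8 in DP.

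Only 2 other regions touched the *Cbfb* gene, both in introns. The region at chr8:105188902-105189320, 18.5 kb after the start, was called at SP8 alone, at a depth of 14.5 and the percentile 75, and its sequence holds 1 RUNX match. It was the one SP8-only region of *Cbfb*. Upstream, the region at 49.5 kb had 24.2 in DN, 22.9 in DP, 32 in SP4 and 37.4 in SP8, and the region at 12.4 kb had 14, 8.24, 19.9 and 12.8. Downstream, the region at 94.7 kb had 36.2, 50.7, 59.3 and 54.2. The DN-only region with the highest percentile, 22.4 kb upstream, had a depth of 11.1.

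The *Cbfb* window held the promoters of further genes. That of *B3gnt9*, which encodes a glycosyltransferase, had 93.8 in DN, 86.1 in DP, 42.9 in SP4 and 92.4 in SP8, lowest at SP4. The shared promoter of *Fbxl8* and *Tradd*, the latter an adaptor of the TNF receptor, had 40.2, 52.5, 40.7 and 61.1, and that of *D230025D16Rik* 33.9, 35.4, 31.7 and 36.9. The promoter of *Ces4a*, a carboxylesterase gene, was called at DN (5.7), DP (5.5) and SP4 (4.04). Over 16 *Cbfb* regions the ratio of SP8 to SP4 had a median of 0.92 for summit depth and 1 for local density, against 0.998 and 1 over all regions, with 1 region at least 2 times higher and 2 at least 2 times lower, beside 4.72 and 7.06% of all regions. Against DN, 0 of 18 were at least 2 times higher and 1 at least 2 times lower, both from DN to SP8, beside 9.43 and 16.0%, and from DN to DP, beside 3.88 and 16.5%.

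Taking the 4 genes together, 5 of the 7 promoters had their greatest summit depth at SP8, although *Runx1* P1 was within counting error of SP4. By percentile of fold enrichment 1 did, *Runx1* P2, and by q-value 4 did, *Runx1* P2, both *Runx3* promoters and *Cbfb*. SP8 was also the deepest stage for 45.2% of the 12043 promoter regions called at all 4 stages, while 13.9% were deepest at DN.

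RUNX matches were counted in the 200 bp around the summit of each region. They were present in 33 of 114 *Runx1* windows (28.9%), 23 of 80 *Runx2* windows (28.8%), 24 of 66 *Runx3* windows (36.4%) and 15 of 26 *Cbfb* windows (57.7%, interval 38.9 to 74.5%). The share was 33.2% over the 4 genes (28 to 38.9%) and 28.2% over all regions. Of the SP8-only regions of *Runx3*, 5 of 15 held a match, against 27.6% of all SP8-only regions. As these intervals treat the regions of a gene as separate draws, they are a description and not a test. The interval of *Runx3* (25.8 to 48.4%) included the share of all regions. That of *Cbfb* lay above it in these windows but not over whole regions, where 13 of 26 (50%, 32.1 to 67.9%) held a match against 35.1% of all regions.

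Matches for 5 other factors were counted in the same windows. The E box (CAGCTG or CAGGTG) occurred in 31.8% of the windows of the 4 genes against 37% of all windows. The GATA motif AGATAA occurred in 9.44% against 8.07%. TCF7/LEF1, spelled CTTTGAT or CTTTGAA, occurred in 8.39% against 9.36%. ETS, spelled CCGGAAGT or CAGGAAGT, occurred in 7.34% against 8.42%. The CTCF consensus occurred in 4 of 286 windows (1.4%, interval 0.545 to 3.54%) against 3.68%. Among the SP8-only regions of *Runx3*, 1 of 15 held an E box, against 22.8% of all SP8-only regions, a comparison chosen after the values were seen. All motifs were matched on both strands without mismatch, and matches of different motifs may overlap.

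Genes that act with RUNX factors had open promoters at almost every stage. Of 18 partner genes, 16 had a promoter peak at DN and 17 at each of DP, SP4 and SP8, against 63.7%, 59.5%, 57.7% and 58% of 20733 protein-coding genes. *Tle4*, which encodes a Groucho corepressor that binds the end of RUNX proteins, had a depth of 114 in DN, 158 in DP, 212 in SP4 and 181 in SP8, and *Tle3* 57.3, 71.8, 85.7 and 96.9. *Ets1*, a factor that binds DNA together with Runx1, had 52.4, 73, 72.4 and 79. *Ep300*, a histone acetyltransferase, had 45.9, 51.9, 56.5 and 65.6. *Runx1t1*, an ETO family corepressor gene, was called at DN alone (9.97).

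Of 24 genes known as RUNX targets in T cells, 22 had a promoter peak at DN, 19 in DP, 19 in SP4 and 21 in SP8. The shares over 20733 protein-coding genes were 63.7, 59.5, 57.7 and 58% in the same order. *Cd8a*, a coreceptor gene, had 26.8 in DN, 101 in DP, 13.4 in SP4 and 89.9 in SP8, and *Cd8b1* 46.2, 101, 57.8 and 151. *Itgae*, the integrin chain CD103, was called at DN (23.7) and SP8 (54.7), and *Gzmb*, a granzyme of cytotoxic cells, at DN (12.8) and SP8 (21.2). *Prf1*, perforin, had 112, 126, 62.1 and 183. Of these, *Cd8a* was deepest at DP and the others at SP8. Other targets with a role in cytotoxic cells were deepest at DN, with 79.2, 11.6, 13.7 and 49.1 at *Ifng*, the interferon gamma gene, and 38.8, 34.5, 20.8 and 22.1 at *Tbx21*, which encodes T-bet.

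*Zbtb7b*, which encodes the CD4-lineage factor ThPOK, a repressor of *Runx3*, had a peak in the 200 bp before a TSS at SP4 alone (67.7). Within 500 bp on either side of a TSS, *Zbtb7b* had a peak at all 4 stages. *Ptcra*, the pre-T cell receptor chain, had 99.5 in DN, 88.5 in DP, 5.59 in SP4 and 4.19 in SP8. *Cd4*, silenced by RUNX factors in DN and SP8 cells, differed little at its promoter, with 27.4, 29.3, 31.4 and 28.8. *Il4* had no promoter peak in any list.

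The labelled stages were checked against markers. The counts below stand beside 63.7% (DN), 59.5% (DP), 57.7% (SP4) and 58% (SP8) of 20733 protein-coding genes with a promoter peak. General T lineage markers had a promoter peak in 9 (DN), 9 (DP), 10 (SP4) and 10 (SP8) of 10 genes. The markers of single stages separated the lists only in part. Of 6 DN markers, 6 had a peak at DN and 5 at each later stage, with *Hes1* called at DN alone (71.8). *Il2ra*, *Notch1* and *Dtx1*, all DN markers, were shallower at DN (33.1, 38.5 and 17.7) than at SP8 (47.7, 69.5 and 44.7). Of 3 SP4 markers, 3 had a peak at SP4 and 2 at each other stage, and of 5 SP8 markers, 5 had one at DN and SP8 and 3 at DP and SP4. Within 500 bp on either side of a TSS, all 3 SP4 markers had a peak at every stage, and 4 SP8 markers had one at DP. *Nkg7*, a marker of SP8 cells, was called at DN (33.6) and SP8 (105). Of 5 natural killer markers 3 had a peak in each list, with *Ncr1* and *Klrb1c* not called in any, and the 3 differed in order, since *Il2rb* was deepest at SP8 (197, against 93.2 at SP4) and *Gzma* (65 at DN, 25.7 at SP8) and *Tbx21* at DN. Of the B cell markers, *Cd79b*, *Ebf1* and *Pax5* were called in each list, and *Cd79a* and *Ms4a1* in none. Myeloid markers were called for 4 of 6 genes at DN and 2 at each later stage, plasmacytoid dendritic markers for 3 of 4 in DN and DP and 2 at the SP stages, osteoblast markers for 3 of 6 in DN and 2 later, and hepatocyte markers for 0 of 6 in every list. The part of other cell types in the DN and SP8 regions was not tested.

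Finally, the share of covered length over the 4 stages, each first divided by the covered length of its list, was compared with that of 14912 protein-coding genes. The *Runx3* shares were 21.3% in DN, 23.3% in DP, 22.9% in SP4 and 32.5% in SP8, and the nearest genes were *Rad54b* (distance 0.00777), *Gm9918* (0.0116) and *Hsh2d* (0.012). The *Runx1* shares (24.2, 25.3, 26.6 and 23.9%) were nearest to those of *Prpsap1*, *Crybg1* and *2410137M14Rik*. The *Runx2* shares (25.5, 24.2, 25.6 and 24.7%) were nearest to *Slc39a5*, *Efl1* and *Mrpl18*, and the *Cbfb* shares (24.4, 25.3, 24.2 and 26.1%) to *S100a2*, *Sema6b* and *Rftn1*. The likeness rests on 4 values per gene, and the nearest genes were all different when numbers of peaks replaced covered length.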

How the data were processed

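ATAC-seq libraries of 4 mice at 4 stages were made by the authors, who aligned the reads to mm10 with BWA, removed duplicates, kept pairs with a mapping quality of at least 30, reduced the libraries to the median depth, combined the 4 mice per stage and ran MACS2 (reads shifted by -50 bp and extended to 100 bp, 5% FDR, version not given in the sources used here). The deposited lists give for each peak a fold enrichment, the ratio of summit to local reads that the authors' run of MACS2 gave. The −log10 p-value and −log10 q-value were deposited by the authors as MACS2 wrote them, with a score that follows the q-value. As read depth behind each value, the number of summit reads and of background reads was recovered here from fold enrichment and p-value, and 3 or fewer peaks per list could not be recovered (tolerance 0.002). Depth is relative to the genome mean of the stage, so stages with different signal over background can differ, and the median ratio over all regions is given beside the median of each gene between SP4 and SP8.

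Regions, promoters (200 bp before a TSS, as in the study), Wilson and exact Poisson intervals and motif matches were computed with Python 3.11.15, pandas 2.3.3 and scipy 1.17.1. P1 and P2 were told apart by the coding start of their transcripts. No peak ended beyond its reference chromosome. Scripts were tested on simulated lists. The members and gene lists were chosen with earlier results of these data known. Regions named were the promoters, per gene the 3 highest by percentile outside promoters, the highest of each single-stage class, the one called at all 4 stages with the largest difference between stages, and the *Runx3* regions called at 1 SP stage alone. Genes named were those with a promoter in a window, the 3 nearest by covered length with at least 10 regions, and those of the lists. All others carry a remark that they were picked with their values in view. Alternatives changed the window, the q-value, the number of peaks, the merging, the percentile, the promoter and the motif, and summit depth and a minimum depth were added after the data were seen. The values of 2 genes of the lists are not reported here.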

Additional observations from a re-analysis of the deposited data

How the results depend on the processing

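No paired analysis was possible because each list used here pools the mice of a stage, although the stages came from the same 4 mice. Values per mouse were not used here, so no mouse was left out. With the gene bodies alone, the 4 genes held 189 regions in place of 286. With equal numbers of peaks from each list, the *Runx2* share called at DN was 61.9%, beside 63.3% of all regions. DN-only regions then made up 12.7% of *Runx2* and SP8-only regions 6.35% (4 regions), beside 11.1 and 7.05% of all regions. With summits within 100 bp joined in place of overlapping peaks, 27.9% of the regions of the 4 genes were called at all 4 stages, beside 25% of all regions. Without regions under 10 times the genome mean, an alternative added after seeing the data, this share was 48.7%, beside 57.1% of all regions. The *Runx2* DN-only share was then 7.69%, beside 9.19%. The *Runx3* share of SP8-only regions stayed between 16.7 and 25.5% under all alternatives run, beside 1.79 to 7.05% of all regions. Its share called at SP8 stayed between 70.8 and 85%, beside 47.9 to 63.1%. The median difference of SP8 from SP4 depended on the measure of height. At *Runx1* it was 2.61 percentile points by fold enrichment, -3.42 by q-value and -0.36 on the log2 scale by summit depth. At *Runx2* it was -0.0404, -1.28 and 0.00633 in the same order, and at *Runx3* -9.55, -0.631 and 0.35. Summit depth, added after seeing the data, placed 5 promoters highest at SP8 in place of 1, and the percentile by q-value 4. Of the 12 nearest genes by covered length, 0 were among the nearest by number of peaks. Fold enrichment divides by the local reads, and the cause of these differences between measures was not tested. Of the other values recomputed for single genes, promoters and lists, 269 moved by less than their counting error or less than 1.5 times and 57 by more, 28 of them percentiles ranked by q-value. Depth limits the shallow single-stage regions most, since peaks of about 10 reads were near the lowest called.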
